A study of Mus musculus with 10 samples.

Results

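Spinal cords of mice with a mutant human TARDBP transgene (M337V) were compared with those of mice with the normal human transgene (WT). The comparison rests on 7 of the 10 libraries of the study, 5 from mice of the M337V group (animals 1, 2, 3, 7 and 9) and 2 from mice of the WT group (animals 8 and 10), chosen by the genotype labels alone. By the labels, each library holds the polyA RNA of 1 lumbar cord, taken from a female at 3 months of age. Mice of both groups carried a genomic copy of human TARDBP in a BAC (bacterial artificial chromosome) that PhiC31 integrase had placed at the Rosa26 locus of embryonic stem cells. In the M337V group exon 6 of that gene carried the mutation. Both groups kept their mouse Tardbp gene, and the lines were crossed to C57BL/6J for at least 3 generations. Whether the animals sequenced had 1 or 2 copies is not in the labels used here, and neither is the number of stem cell clones behind each line. With 1 line per genotype, the mutation cannot be told apart from anything else that was inherited with its line. The 3 NTg libraries (animals 4, 5 and 6, labelled nontransgenic, C57BL/6) are printed beside some of the results and served to estimate the spread between libraries. NTg 4 held human TARDBP at the level of the transgenic libraries, against its label. The NTg ranges and the spread include it unless stated. Log2 differences are M337V minus WT and are given with their standard error after the sign ±.

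TARDBP encodes TDP-43, a mostly nuclear protein that binds UG-rich RNA through its RNA recognition motifs and regulates splicing, RNA stability and its own messenger RNA. In amyotrophic lateral sclerosis (ALS) TDP-43 leaves the nucleus of motor neurons and gathers in cytoplasmic deposits. Most disease mutations, M337V among them, change single residues of the glycine-rich C-terminal tail, the part of the protein that drives its assembly into granules. M337V replaces methionine with valine.

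The libraries held 18724888 to 20932246 counts in the 7 compared libraries and 19948913 to 21041474 in NTg, and defining genes of motor neurons (Chat, Slc18a3, Mnx1), myelin (Mbp, Mog), astrocytes (Gfap, Aqp4) and microglia (P2ry12) were present in all 10. Levels are CPM, the counts of a gene per 1000000 counts of its library after TMM scaling, which compares a gene between libraries but not one gene with another. The 2 WT libraries stood far apart from each other. WT 8 lay at -39.7 on the first principal component of the 7 libraries (31.6% of their variance), where the others lay between -9.16 and 20.9. The posterior Hox genes (groups 10 to 13), markers of caudal cord, summed to 240 counts in WT 8, 4523 in WT 10 and 789 to 3211 in M337V. Whether WT 8 was taken at the same level of the cord as the others was not tested. In CPM, 15 skeletal muscle genes summed to 939 in WT 8, 138 in WT 10, 118 to 355 in M337V and 275, 1072 and 1607 in NTg 4, NTg 5 and NTg 6. WT 8 also held 699 counts of the liver gene Alb (albumin) against 0 to 17 in the other 9 libraries. WT 10 held 359 counts of the epidermal keratin gene Krt2 against 0 to 4 elsewhere, and M337V 7 held 242 counts of Krt5, another keratin gene, against 47 in WT 10 and 0 or 1 elsewhere. The M337V libraries came in 2 runs of library numbers, 10 to 12 for animals 1 to 3 and 5 and 7 for animals 7 and 9, with WT at 6 and 8. Ndufs5, a respiratory chain subunit gene, stood at 14.6, 14.3, 16.9, 48.5 and 49.3 CPM in M337V and 43.7 and 50.7 CPM in WT, so M337V 1 to 3 stood apart from all the others. The part of these differences in the results was examined only by leaving out each library, by leaving out M337V 1 to 3 together, and by covariates for the Hox genes of groups 10 to 13 and for Schwann cell genes. Beside many results the log2 difference against 1 WT library alone is given.

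The first question is whether both groups held RNA of the human gene at the same level. No difference beyond the spread between animals was seen. Human TARDBP stood at 116, 118, 125, 141 and 124 CPM in M337V 1, 2, 3, 7 and 9, an order kept in all lists of M337V values below, and at 127 and 114 CPM in WT 8 and WT 10. WT 8 lay inside the M337V range and WT 10 slightly below it. M337V averaged 125 ± 9.69 CPM (SD, n = 5), WT averaged 120.3 ± 9.29 CPM (SD, n = 2), and the difference of 4.48 CPM gave p = 0.619 in an exact two-sided permutation test over 21 assignments, whose smallest possible p is 0.0476 (0.714 adjusted over 3 levels). NTg 5 and NTg 6 held 0.0493 and 0.186 CPM. The library labelled NTg 4 held 118 CPM, against its label, and the second human identifier was at 0 throughout, which leaves room for up to 3 counts per library.

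Mouse Tardbp stood at 250.4, 272, 279.6, 228 and 253 CPM in M337V and at 244 and 255 CPM in WT. The groups overlapped (exact permutation p = 0.714, 0.714 adjusted), and edgeR gave a log2 difference of 0.04 ± 0.07 with a 95% interval from -0.12 to 0.20. For both genes together M337V averaged 381 ± 15.9 CPM (SD, n = 5), WT averaged 369.6 ± 1.79 CPM (SD, n = 2), with an exact permutation p of 0.524. The human gene gave 32.8% ± 3.19 of these reads in M337V and 32.5% ± 2.35 in WT. The mutant and the normal transgene were thus read at levels that did not differ beyond the spread, with 2 WT animals limiting the precision.

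**Figure D1:**
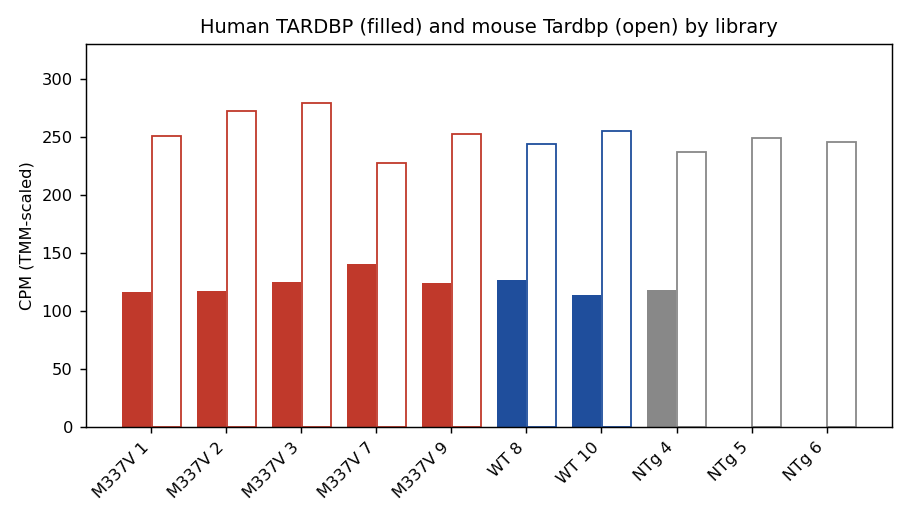
Levels of human TARDBP (filled bars) and mouse Tardbp (open bars) in TMM-scaled CPM, by library; red is M337V, blue WT and grey NTg. The 7 libraries labelled transgenic hold 114 to 141 CPM of the human gene, and so does the library labelled NTg 4.

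Across the transcriptome edgeR called 0 of 15191 genes (0%) between M337V and WT at a Benjamini-Hochberg adjusted p below 0.05, so no gene is said to have changed on that test. At an unadjusted p below 0.05 it held 1012 genes (6.66%), 540 higher (3.55%) and 472 lower (3.11%) in M337V. The shares of 3.55% and 3.11% are those to set beside the counts of list members below. With NTg 4 left out of the fit edgeR called Zic1 and Pcna-ps2. Both WT libraries lay outside the range of all 5 M337V libraries for 1443 genes (9.5%), of which 737 (4.85%) were higher and 706 (4.65%) lower in M337V. DESeq2 called 30 of 14297 genes, 22 higher (0.154%) and 8 lower (0.056%), and limma-voom called 0 with 541 at an unadjusted p below 0.05. For all 30 the groups did not overlap. Without WT 8 DESeq2 called 43 genes, 15 of the 30 among them, and without WT 10 it called 94, 7 of the 30 among them. The 4 genes called in all 3 fits were 4833420G17Rik, Hoxb9, Pcna-ps2 and Zic1. The median standard error of a log2 difference was 0.10. For 11568 genes (76.2%) the 95% interval lay inside a 1.5-fold difference in either direction, and for 87.9% inside a 2-fold one.

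After 4833420G17Rik, a gene of chromosome 13 described further on, Zic4, Zic1 and Hoxb9 were the named genes with the smallest p among those higher in M337V. Zic1 and Zic4 are zinc finger genes of dorsal neural progenitors and dorsal neurons that lie on opposite strands of chromosome 9, where their spans overlap (GRCm38, Zic1 at 91358058 to 91365810 on the minus strand, Zic4 at 91362413 to 91389348 on the plus strand). Zic1 stood at 49.3, 47.2, 49.4, 51.7 and 53.96 CPM in M337V and at 32.3 and 33.4 CPM in WT. All M337V libraries were higher than both WT libraries, and NTg (46.3 to 60.2 CPM, highest in NTg 4) stood with M337V. The log2 difference was 0.62 ± 0.10 (edgeR adjusted p = 0.172, DESeq2 adjusted p = 2.99e-05), with 0.59 against WT 10 alone, 0.64 against WT 8 alone and 0.68 for M337V 7 and 9 alone.

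Zic4 stood at 6.80, 6.76, 7.26, 7.24 and 5.46 CPM in M337V and at 3.61 and 3.26 CPM in WT, again without overlap. The log2 difference was 0.96 ± 0.14 (edgeR adjusted p = 0.172, DESeq2 adjusted p = 0.00193), and 0.88 for M337V 7 and 9 alone. NTg held 6.43 to 6.80 CPM. The promoter windows of the pair are printed because these neighbouring genes stood apart from WT in the same direction in all M337V libraries. Both are from RefSeq (GRCm38.p6), 250 bases before to 50 after the annotated start, in the direction of transcription, with each CG in capitals. The Zic4 window lies inside the Zic4 span given above and not at its first base, so the 2 annotations place the start of Zic4 differently:

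Zic1, chr9:91365719-91366018, minus strand: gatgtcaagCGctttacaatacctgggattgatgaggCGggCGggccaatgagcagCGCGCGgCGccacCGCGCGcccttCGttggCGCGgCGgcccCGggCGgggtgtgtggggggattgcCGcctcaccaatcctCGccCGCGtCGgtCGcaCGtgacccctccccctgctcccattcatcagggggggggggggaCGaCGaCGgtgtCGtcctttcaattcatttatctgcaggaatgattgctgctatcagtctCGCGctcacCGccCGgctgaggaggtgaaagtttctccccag

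Zic4, chr9:91368722-91369021, plus strand: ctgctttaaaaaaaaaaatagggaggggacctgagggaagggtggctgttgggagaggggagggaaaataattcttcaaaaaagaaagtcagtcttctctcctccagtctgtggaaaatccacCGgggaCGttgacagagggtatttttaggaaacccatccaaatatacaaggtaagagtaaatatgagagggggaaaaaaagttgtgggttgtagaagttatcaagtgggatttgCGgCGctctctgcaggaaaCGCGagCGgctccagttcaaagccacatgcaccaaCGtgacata

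The windows are 2703 bases apart. That of Zic1 holds 31 CG and that of Zic4 holds 8, while the median of 32851 promoters is 7 and 10.6% and 48.6% of them hold as many or more. CG was counted on 1 strand, as it reads the same on the other.

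Hoxb9, a homeobox gene of the thoracic and lumbar level, stood at 102, 87.6, 96.2, 92.7 and 113 CPM in M337V and at 70.7 and 62.8 CPM in WT. The groups did not overlap, and the log2 difference was 0.56 ± 0.09 (edgeR adjusted p = 0.176, DESeq2 adjusted p = 3.81e-05), with 0.62 for M337V 7 and 9 alone. NTg (89.9 to 99.0 CPM) stood within the M337V range. Of 19 Hox genes of groups 4 to 9, 4 were higher in M337V at an unadjusted p below 0.05 (3.55% of all genes) and 0 lower. All 4 were without overlap (4.85% of all genes) and in the HoxB cluster. The others were Hoxb6 (log2 0.37 ± 0.07), Hoxb8 (0.35 ± 0.07) and Hoxb5 (0.35 ± 0.10). Their list median was 0.15, with 0.43 against WT 10 alone and 0.03 against WT 8 alone, beside the 240 and 4523 counts of Hox groups 10 to 13 in WT 8 and WT 10. Hoxb5 was 0.59 against WT 10 alone and 0.14 against WT 8 alone.

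Calb1 (calbindin, a calcium buffer of superficial dorsal neurons) stood at 46.6, 50, 45.9, 50.6 and 51.2 CPM in M337V and at 36.6 and 32.01 CPM in WT. The M337V values lay close together above both WT values, with a log2 difference of 0.51 ± 0.09 (edgeR adjusted p = 0.176). Synpr, a synaptic vesicle protein gene, stood at 43.7, 41.7, 40.3, 36.5 and 39.6 CPM in M337V and at 30.3 and 29.9 CPM in WT (log2 0.42 ± 0.07, edgeR adjusted p = 0.176). Ly6h, which encodes a membrane-anchored protein of neurons that binds nicotinic acetylcholine receptors, stood at 60.6, 56.5, 48.4, 55.1 and 55.99 CPM against 40.97 and 39.7 CPM. Neither gene's groups overlapped. NTg held 43.1 to 51.9 CPM of Calb1 and 36.8 to 38.8 CPM of Synpr, overlapping M337V. Of Ly6h it held 62.1 to 71.3 CPM, above all M337V libraries. Prrxl1, a homeobox gene of pain-sensing neurons and their dorsal horn targets, gave a log2 difference of 0.60 ± 0.12, and Slc16a11, a monocarboxylate transporter gene, one of 0.72 ± 0.16 (edgeR adjusted p = 0.471 and 0.496). Zfp57, a zinc finger gene that keeps imprinted methylation, followed at 0.70 ± 0.16 without overlap.

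**Figure D2:**
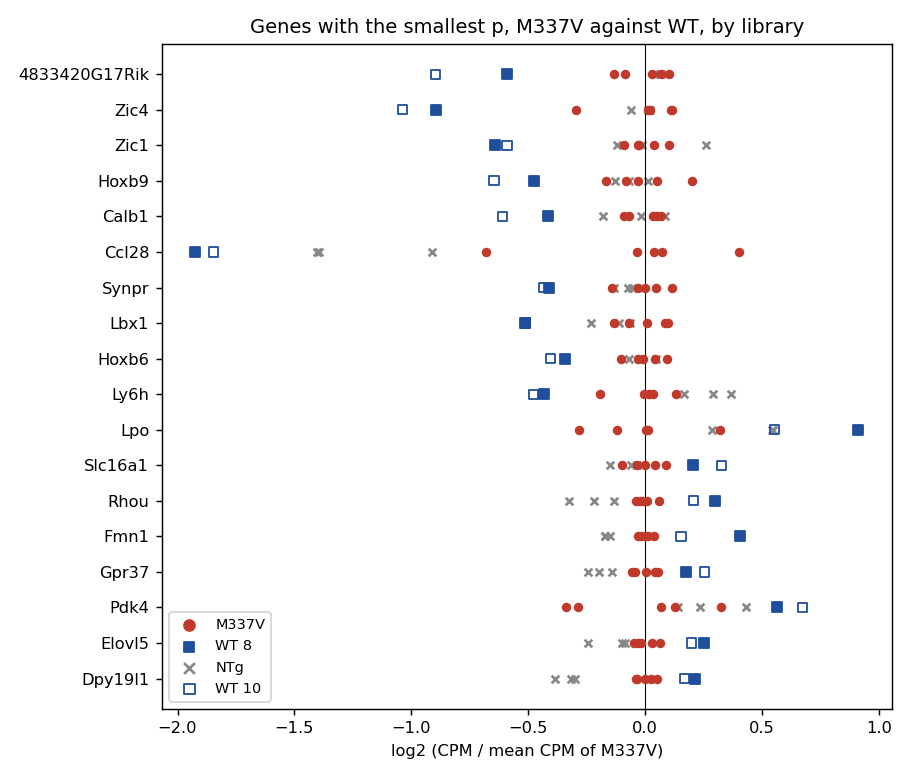
Genes with the smallest p in each direction, each library drawn as log2 of its CPM over the mean CPM of M337V; red circles are M337V, blue squares WT 8 (filled) and WT 10 (open), grey crosses NTg, and Alb and Pcna-ps2 are left out for their scale. All WT squares lie outside the range of the red circles, and the NTg crosses lie mostly among the circles for the genes lower in WT.

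The dorsal horn relays touch, itch, temperature and pain, and its neurons are told apart by neuropeptides and transcription factors. Of the 20 genes of the dorsal horn neuron list 15 had an unadjusted p below 0.05 and were higher in M337V (3.55% of all genes), 0 were lower, and 10 did not overlap (4.85% of all genes). edgeR called 0 of them and DESeq2 4 (Lbx1, Tac2, Penk and Sst). The list median was a log2 difference of 0.44, with 0.54 against WT 10 alone, 0.37 against WT 8 alone and 0.49 without M337V 1 to 3, while the median of all 15191 genes was 0.00. A list described after earlier results were known gives no independent support.

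Among the neuropeptide genes, Tac2 (neurokinin B) stood at 32.7, 31.4, 16.5, 28.7 and 28.5 CPM in M337V and at 15.02 and 13.3 CPM in WT. M337V 3 was close to WT 8, and the other M337V libraries were far above both WT libraries. The log2 difference was 0.96 ± 0.22 (edgeR adjusted p = 0.496, DESeq2 adjusted p = 0.00430), and without M337V 3 it was 1.10 and passed edgeR (adjusted p = 0.0172). Penk (enkephalin, an opioid peptide) stood at 94.7, 88.8, 90.03, 98.8 and 101.4 CPM against 82.04 and 69.6 CPM in WT, without overlap, with a log2 difference of 0.32 ± 0.07 (edgeR adjusted p = 0.496), and 0.21 against WT 8 alone.

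Sst (somatostatin, of excitatory dorsal interneurons) stood at 59.96, 57.9, 48.1, 61.5 and 58.7 CPM in M337V and at 38.7 and 45.3 CPM in WT, a log2 difference of 0.45 ± 0.10 (edgeR adjusted p = 0.496). M337V 3 was again the lowest of its group and still above WT 10. All NTg libraries (66.6 to 78.7 CPM) stood above the M337V range of Sst. Tac1 (substance P) stood at 24.97, 30.1, 23.1, 22.3 and 27.6 CPM against 19.8 and 18.1 CPM (log2 0.44 ± 0.12), and Npy (neuropeptide Y, of inhibitory dorsal neurons) at 13.05, 9.34, 9.98, 8.48 and 8.63 CPM against 6.59 and 5.21 CPM (log2 0.75 ± 0.22). Neither overlapped, and both had edgeR adjusted p = 0.625. Cck (cholecystokinin) differed by 0.43 ± 0.12, with 0.20 against WT 10 alone and 0.70 against WT 8 alone. Nmu (neuromedin U) differed by 0.76 ± 0.24, with 1.18 and 0.43. Gal (galanin) differed by 0.72 ± 0.23 without overlap, while Grp (gastrin-releasing peptide, a transmitter of itch, 0.61 ± 0.23) and Nts (neurotensin, 0.37 ± 0.15) overlapped between the groups. Against WT 8 alone Grp was 0.36 and Nts 0.19, and against WT 10 alone Nts was 0.57. Pdyn (dynorphin) was 0.40 ± 0.27 with an unadjusted p above 0.05, and 0.23 without M337V 9.

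Of the receptors on the list, Nmur2, which binds neuromedin U, stood at 5.93, 5.15, 5.23, 3.88 and 5.30 CPM in M337V and at 3.40 and 3.22 CPM in WT, without overlap (log2 0.62 ± 0.18, edgeR adjusted p = 0.625). Of the transcription factors, Lbx1, which sets the identity of dorsal association neurons, stood at 16.9, 15.2, 14.6, 17.1 and 16.1 CPM against 11.2 and 11.2 CPM. Both WT libraries gave the same level, all M337V libraries were above it, and the log2 difference was 0.51 ± 0.09 (edgeR adjusted p = 0.237). NTg held 13.6 to 15.3 CPM of Lbx1, within or below the M337V range. Lmx1b and Tlx3, which specify excitatory dorsal neurons, differed by 0.47 ± 0.15 and 0.57 ± 0.26, and Ebf1 by 0.33 ± 0.11, each with overlap. Against WT 10 and WT 8 alone Tlx3 was 0.92 and 0.29, and Ebf1 0.50 and 0.17. Zfhx3 was the lowest of the list at -0.27 ± 0.13 (-0.08 against WT 10 alone), where 68.4 and 53.4 CPM in WT 8 and WT 10 overlapped the M337V range of 43.2 to 58.8 CPM. NTg libraries summed to 698 to 720 CPM over the 20 genes, M337V to 610 to 687 CPM and WT to 576 and 587 CPM.

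**Figure D3:**
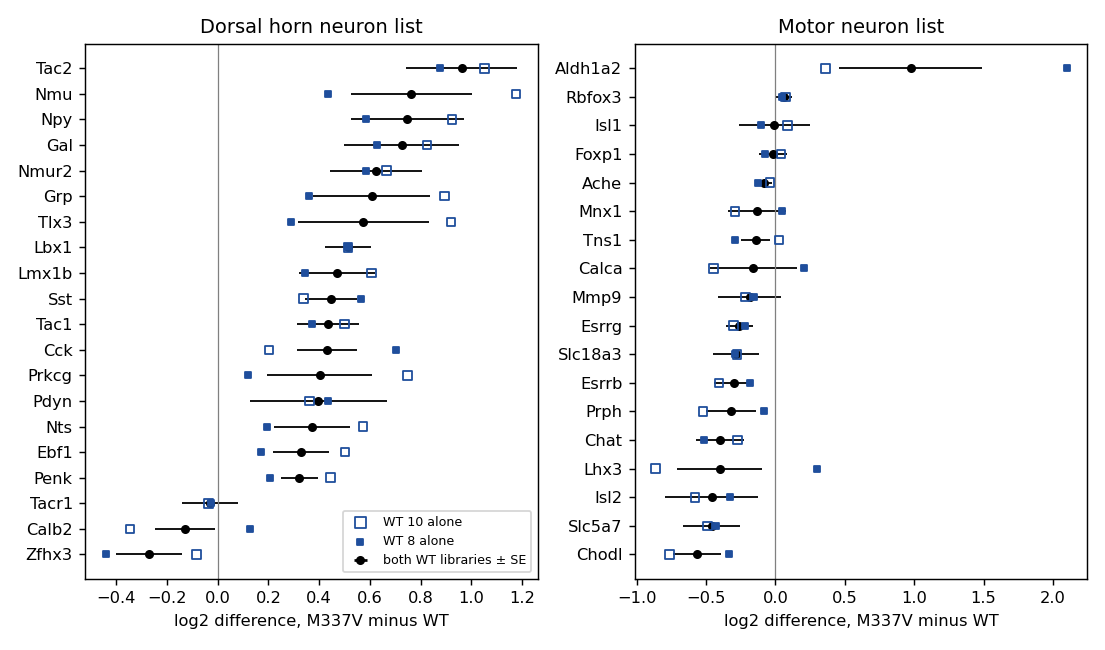
Log2 differences, M337V minus WT, of the dorsal horn neuron list (left) and the motor neuron list (right); black points and bars are the estimate with both WT libraries and its standard error, open squares the estimate against WT 10 alone and filled squares that against WT 8 alone. Of the dorsal horn genes 17 of 20 lie above 0, and of the motor neuron genes 2 of 18 do.

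Motor neurons of the ventral horn are the cells lost in ALS. Of 18 motor neuron genes 0 were higher and 4 lower in M337V at an unadjusted p below 0.05 (3.11% of all genes), and 0 had groups without overlap. The list median was -0.22, with -0.28 against WT 10 alone, -0.14 against WT 8 alone, -0.23 without M337V 1 to 3, -0.35 without M337V 3 and -0.47 with a covariate of Schwann cell genes. Chodl, a lectin gene of fast motor neurons, stood at 32.2, 48.9, 58.7, 40.4 and 45.3 CPM in M337V and at 56.9 and 76.5 CPM in WT. Only M337V 3 exceeded WT 8, and the log2 difference was -0.56 ± 0.17 (edgeR adjusted p = 0.625), with -0.33 against WT 8 alone and -0.85 with the Schwann covariate.

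Chat, the enzyme that makes acetylcholine, stood at 19.6, 23.5, 33.02, 19.6 and 23.3 CPM in M337V and at 34.01 and 28.8 CPM in WT (log2 -0.40 ± 0.17, edgeR adjusted p = 0.743). M337V 3 lay between the WT libraries and the other M337V libraries below both. The choline transporter gene Slc5a7 stood at 102, 113, 196, 104 and 146 CPM against 178 and 186 CPM (log2 -0.46 ± 0.20), with M337V 3 above both WT libraries and the rest below. Esrrg, a nuclear receptor gene of gamma motor neurons, differed by -0.26 ± 0.10 and the vesicular acetylcholine transporter gene Slc18a3 by -0.28 ± 0.16, both with overlap. With the Schwann covariate Slc5a7 was -0.78, Slc18a3 -0.50 and Esrrg -0.41. In bulk RNA, fewer cells of a type and less RNA per cell cannot be told apart. M337V 3, the M337V library highest in these genes and lowest in Tac2, Sst and Gal, also had the fewest counts of Hox groups 10 to 13 in its group (789 against 2295 to 3211).

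Inhibitory interneurons of the ventral and intermediate cord use glycine. Glra1, a glycine receptor subunit gene, stood at 127, 121, 144, 152 and 137 CPM in M337V and at 187 and 156 CPM in WT, without overlap (log2 -0.33 ± 0.10, with -0.19 against WT 10 alone and -0.46 against WT 8 alone). Slc6a5, the neuronal glycine transporter gene, stood at 525, 468, 579, 604 and 596 CPM against 642 and 646 CPM (log2 -0.22 ± 0.09). In both genes all M337V libraries were below both WT libraries, with edgeR adjusted p = 0.625 and 0.742. Of the 13 genes of the inhibitory neuron list 1 was higher (Calb1) and 2 lower at an unadjusted p below 0.05, and the median was 0.01. Of 18 postsynaptic glutamate genes 3 were higher, Shank3 (log2 0.26 ± 0.10), Dlg4 (0.14 ± 0.05) and Gria2 (0.14 ± 0.07), 1 was lower and the median was 0.08, with 0.16 against WT 10 alone and -0.03 against WT 8 alone. Shank3 was 0.16 against WT 8 alone.

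The list medians of genes tied to TDP-43 itself stood close to 0. Of 10 genes of TDP-43 and its relatives (FET proteins and hnRNPs) 1 had an unadjusted p below 0.05, Hnrnpa3, a splicing repressor, at 316, 327, 309, 312 and 331 CPM in M337V and 282 and 302 CPM in WT (log2 0.13 ± 0.05, edgeR adjusted p = 0.742, and 0.08 against WT 10 alone). The list median was 0.08 and the range of its members -0.02 to 0.15. Of 27 transcripts known to respond to TDP-43, 0 were higher and 2 lower at an unadjusted p below 0.05, with a median of -0.02. Members of this list ran from -0.40 to 0.13. The 2 lower were Chat, given above, and Nrxn3, a synaptic adhesion gene with very long introns (log2 -0.19 ± 0.08, edgeR adjusted p = 0.743). Sort1, whose splicing TDP-43 controls, differed by -0.11 ± 0.06 in its total count, -0.03 against WT 10 alone and -0.18 against WT 8 alone. Counts per gene do not show splice forms, so exon use was not analysed here.

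Of 33 ALS and frontotemporal dementia genes 0 had an unadjusted p below 0.05 in either direction, 0 had groups without overlap, and the median was 0.00, from -0.02 to 0.02 over all settings tried. Sod1, a superoxide dismutase, stood at 157, 162, 159.9, 144 and 149 CPM in M337V and at 133 and 165 CPM in WT, which differed more from each other than the groups did (log2 0.05 ± 0.08, 95% interval -0.12 to 0.23). Kif5a, an axonal motor gene, differed by 0.20 ± 0.10. In both genes M337V and WT overlapped.

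Stress granules are assemblies of stalled messenger RNA and RNA-binding proteins. Of 29 stress granule genes 1 had an unadjusted p below 0.05, Nufip2, a partner of the granule protein FMRP, at 74.5, 77.96, 81.5, 87.7 and 80.7 CPM in M337V and 92.03 and 92.8 CPM in WT (log2 -0.20 ± 0.06, edgeR adjusted p = 0.625). The list median was 0.00 and its members ranged from -0.20 to 0.15. Of 24 genes of the integrated stress and unfolded protein responses 1 was lower and 0 higher, with a median of -0.04, -0.13 against WT 10 alone and 0.02 against WT 8 alone. All 15 heat shock chaperone genes had a log2 difference below 0, with a median of -0.10 (-0.17 against WT 10 alone). Of these 15, 2 had an unadjusted p below 0.05 (3.11% of all genes were lower at that p). Bag3, a co-chaperone of protein clearance, stood at 31.5, 32.7, 37.00, 36.1 and 35.7 CPM against 42.2 and 41.9 CPM (log2 -0.28 ± 0.07, edgeR adjusted p = 0.625), and its partner Hspb8 at 43.4, 52.3, 45.6, 48.1 and 45.9 CPM against 57.8 and 56.2 CPM (log2 -0.28 ± 0.09, and -0.18 with the Schwann covariate). Neither overlapped, while NTg held 36.1 to 40.8 CPM of Bag3 and 39.9 to 50.2 CPM of Hspb8. Of 23 autophagy and lysosome genes 1 was lower and 0 higher (median -0.01). Of 34 splicing regulators 3 were higher (3.55% of all genes), all of the CELF family (Celf1 0.16 ± 0.05, Celf2 0.29 ± 0.10 and Celf4 0.18 ± 0.08). The 1 lower (3.11% of all genes) was Elavl4 (-0.24 ± 0.09), and the list median was 0.00. Against WT 8 alone Celf2 was 0.17 and Elavl4 -0.11, and against WT 10 alone Celf4 was 0.11.

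Myelin and sterol genes were on the lower side in M337V against WT. Of 27 oligodendrocyte and myelin genes 0 were higher and 4 lower in M337V at an unadjusted p below 0.05 (3.11% of all genes were lower). The list median was -0.11, with -0.03 against WT 10 alone and -0.17 against WT 8 alone. With the Hox covariate this median was -0.05, and with the Schwann covariate -0.03. Gpr37, a receptor of maturing oligodendrocytes, stood at 265, 246, 257, 263 and 248 CPM in M337V and at 288 and 305 CPM in WT, without overlap (log2 -0.21 ± 0.05, edgeR adjusted p = 0.550, DESeq2 adjusted p = 0.0327). Plekhh1 (-0.20 ± 0.07), Enpp6 (-0.37 ± 0.13), a marker of newly formed oligodendrocytes, and Myrf (-0.23 ± 0.08), the transcription factor of myelination, were the others. Enpp6 was -0.10 against WT 10 alone and -0.60 against WT 8 alone, Myrf -0.08 and -0.36, and Plekhh1 -0.12 against WT 10 alone. With the Schwann covariate Enpp6 was -0.19 and Myrf -0.14, and with the Hox covariate Enpp6 was -0.22. The structural gene Mag (-0.15 ± 0.07, with -0.04 and -0.25) did not reach an unadjusted p of 0.05. Summed over the 27 genes, M337V held 35081 to 42750 CPM, overlapping WT 8 and WT 10 (42306 and 38254 CPM). NTg held 26414 to 31232 CPM, below all M337V and WT libraries.

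Of 23 cholesterol synthesis genes 22 had a log2 difference below 0, where 7627 of all 15191 genes were above 0. Of the 23 genes, 5 were lower at an unadjusted p below 0.05 (3.11% of all genes). The list median was -0.13, with -0.07 against WT 10 alone and -0.19 against WT 8 alone. Ebp, a sterol isomerase, stood at 24.4, 25.8, 23.3, 24.2 and 25.3 CPM in M337V and at 28.8 and 29.2 CPM in WT, and Insig1, the sterol sensor that holds back the pathway, at 208, 182, 189, 228 and 188 CPM against 239 and 239 CPM. Neither gene's groups overlapped (log2 -0.24 ± 0.07 and -0.27 ± 0.08, edgeR adjusted p = 0.625 for both). Mvd, a decarboxylase of the pathway, differed by -0.26 ± 0.11, and by -0.14 with the Schwann covariate. In Gpr37 all NTg libraries (216, 223 and 232 CPM) stood below the M337V range. In Insig1 all NTg libraries stood within or below it.

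The other genes lower in M337V with the smallest p had varied roles. Slc16a1, which exports lactate from oligodendrocytes to axons and also serves vessels, stood at 142, 152, 148, 156 and 162 CPM in M337V and at 175 and 191 CPM in WT (log2 -0.27 ± 0.06, DESeq2 adjusted p = 0.0304). Elovl5, a fatty acid elongase, stood at 234, 247, 253, 237 and 239 CPM against 288 and 278 CPM (log2 -0.22 ± 0.06), and Rhou, a small GTPase gene, at 119, 116, 118, 120.5 and 125 CPM against 147 and 138 CPM (log2 -0.25 ± 0.06). In each of these the groups did not overlap. All NTg libraries stood below the M337V range in Elovl5 (204 to 228 CPM) and Rhou (95.5 to 109 CPM). In Slc16a1 they held 137 to 149 CPM, within or below that range. Dpy19l1 (-0.19 ± 0.05), Fmn1, which nucleates actin (-0.28 ± 0.07, and -0.15 against WT 10 alone), Pdk4, a kinase that holds back glucose oxidation (-0.62 ± 0.15), and Lpo, lactoperoxidase (-0.74 ± 0.16), completed the lower genes by p, with edgeR adjusted p from 0.476 to 0.55. NTg held 178 to 189 CPM of Dpy19l1, below the M337V range of 227 to 241 CPM. Of Pdk4 and Lpo it held 28.0 to 34.2 and 6.85 to 8.19 CPM. Those values lay within or above the M337V ranges (20.1 to 31.8 and 4.61 to 7.00 CPM) and below WT. Among the genes with the widest gap between the groups were further Sass6 (-0.40 ± 0.11), a centriole gene, Efna2 (-0.30 ± 0.10), an axon guidance ligand, Hspbap1 (-0.32 ± 0.13, and -0.18 with the Schwann covariate), Sel1l3 (-0.29 ± 0.07) and Dusp1 (-0.33 ± 0.12), an immediate early phosphatase.

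Alb and Pcna-ps2 had the largest differences among the lower genes. Alb stood at 36.6 CPM in WT 8 and at 0.195 CPM in WT 10, inside the M337V range of 0 to 0.888 CPM, so its log2 difference of -6.10 ± 1.17 came from WT 8. Pcna-ps2, a processed copy of the replication clamp gene Pcna on chromosome 19 (9283380 to 9284160), stood at 0.256, 0.215, 0.157, 0 and 0.0520 CPM in M337V and at 2.56 and 3.02 CPM in WT. NTg 5 held 3.20 CPM of it and NTg 6 2.42 CPM, against 0.196 CPM in the library labelled NTg 4. Its log2 difference was -4.30 ± 0.79 (edgeR adjusted p = 0.237, and 0.0209 with NTg 4 left out). Reads of such a copy can be divided with its parent gene, so this value is uncertain.

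The class II antigen presentation genes were higher in all M337V libraries. H2-Aa, which encodes the class II alpha chain, stood at 4.60, 7.14, 18.6, 11.5 and 8.06 CPM in M337V and at 1.15 and 3.31 CPM in WT (log2 2.15 ± 0.61, edgeR adjusted p = 0.625). Cd74, the invariant chain that guides class II molecules, stood at 8.85, 10.1, 27.2, 21.6 and 16.1 CPM against 4.34 and 7.16 CPM (log2 1.54 ± 0.49). M337V 3 was the highest in both and M337V 1 the lowest, and the groups did not overlap. With H2-Ab1 (1.56 ± 0.56) and H2-Eb1 (1.70 ± 0.62) they were the 4 of 13 genes of the list at an unadjusted p below 0.05. Of all genes 3.55% were higher at that p. The list median was 0.26, with 0.42 against WT 8 alone and 0.01 with a covariate of Schwann cell genes. With that covariate H2-Aa was 0.92, Cd74 0.47, H2-Ab1 0.35 and H2-Eb1 0.33. Clec14a, a lectin gene of endothelial cells, stood at 5.01, 5.15, 5.75, 7.96 and 5.72 CPM against 3.87 and 3.12 CPM, without overlap (log2 0.76 ± 0.22). Meningeal fibroblast genes had a median of 0.79 with 16 of 16 above 0, 0.35 against WT 10 alone, 1.22 against WT 8 alone, 0.49 without M337V 7 and -0.19 with the Schwann covariate. Schwann cell genes had a median of 0.88, 0.68 against WT 10 alone, 1.13 against WT 8 alone and 0.51 without M337V 3. Summed levels over the 16 meningeal genes ran from 1472 to 2266 CPM in M337V and were 1375 and 1608 CPM in WT 8 and WT 10 and 1300 to 2472 CPM in NTg. Of 16 homeostatic microglia genes 1 was higher and 1 lower (median 0.09, -0.01 against WT 8 alone), and of 13 reactive astrocyte genes 0 had an unadjusted p below 0.05 (median 0.09, -0.05 without M337V 7).

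A region of chromosome 13 held several of the genes that stood apart. The gene with the smallest p of all was 4833420G17Rik, an uncharacterised protein-coding gene at 119462768 to 119486120 on the plus strand (GRCm38). It stood at 34.5, 35.4, 33.6, 31.01 and 30.05 CPM in M337V, at 21.9 and 17.7 CPM in WT and at 33.8 to 34.5 CPM in NTg. The WT libraries were the low ones, and M337V and NTg stood together. The log2 difference was 0.74 ± 0.09 (edgeR adjusted p = 0.0705, DESeq2 adjusted p = 5.42e-08), with 0.90 against WT 10 alone (edgeR adjusted p = 0.0178) and 0.59 against WT 8 alone (0.113). For M337V 7 and 9 alone it was 0.62.

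Ccl28, a chemokine gene of mucosal tissue whose start lies 161 kb further along, stood at 3.94, 3.06, 3.14, 1.86 and 2.91 CPM in M337V and at 0.785 and 0.828 CPM in WT. The groups did not overlap, with NTg at 1.13 to 1.58 CPM between them (log2 1.88 ± 0.32, edgeR adjusted p = 0.176). Nnt, which encodes the mitochondrial nicotinamide nucleotide transhydrogenase and carries a deletion in C57BL/6J mice, starts 127 kb before 4833420G17Rik. It stood at 37.96, 23.6, 37.3, 38.9 and 39.7 CPM in M337V, at 53.4 and 48.5 CPM in WT and at 32.4 to 38.8 CPM in NTg. WT was above both other groups, M337V 2 was far below the other M337V libraries, and the log2 difference was -0.52 ± 0.16 (edgeR adjusted p = 0.625).

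Within 1 Mb on either side of the start of 4833420G17Rik 10 genes were tested, and 6 had both an unadjusted p below 0.05 and groups without overlap, against 6.66% and 9.5% of all genes. Beside the 3 genes above they were 3110070M22Rik (log2 1.01 ± 0.39), Nim1k (0.32 ± 0.09), a kinase gene, and Zfp131 (0.17 ± 0.06), a zinc finger gene, all higher in M337V. 3110070M22Rik was near the floor, and its groups barely parted, with 0.483 CPM in M337V 2 and 0.471 CPM in WT 8. The median share of genes without overlap in 13351 windows of this size with at least 8 tested genes was 8.33%, and the 8 windows that reached 60% were all centred on genes of this region. Neighbouring windows share genes, and the region was chosen after its values were seen. What the 2 lines carry on this chromosome was not tested.

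**Figure D4:**
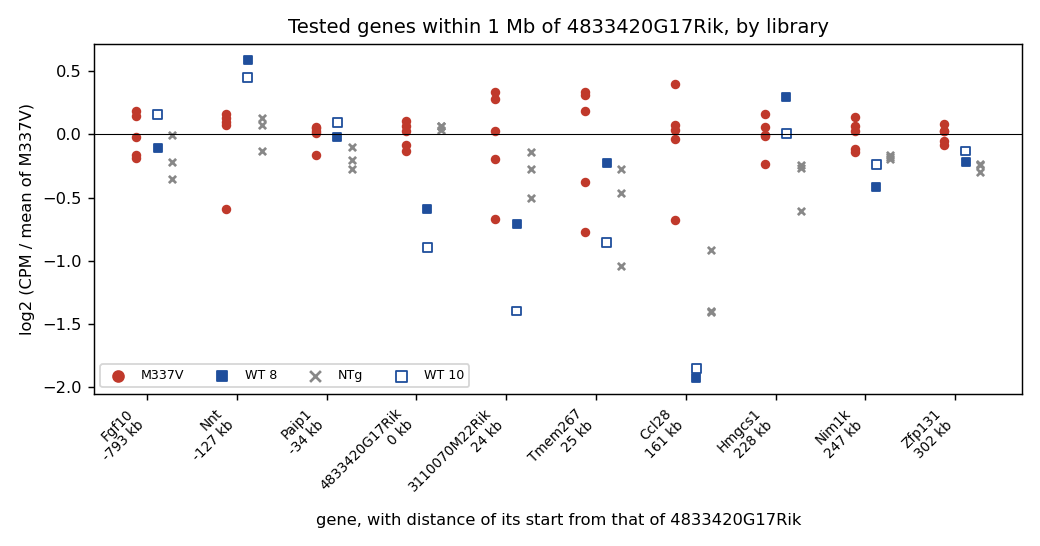
Tested genes within 1 Mb of the start of 4833420G17Rik, in order of position, each library drawn as log2 of its CPM over the mean CPM of M337V (red circles M337V, blue squares WT 8 filled and WT 10 open, grey crosses NTg). Both WT squares lie below all M337V circles at 5 genes and above them at Nnt.

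Lists of muscle, caudal Hox and blood genes had medians that moved with single libraries. Skeletal muscle genes had a median of -1.37, which was 2.08 against WT 10 alone, -2.31 against WT 8 alone, 1.10 with the Hox covariate and 0.23 with the Schwann covariate. Hox genes of groups 10 to 13 had a median of -0.12, -1.10 against WT 10 alone and 6.84 against WT 8 alone. That last value is 3.55 with the 6 genes at 0 in WT 8 set to a floor of 3 counts there. Erythroid genes had a median of 1.10, with 1.76 against WT 10 alone, 0.77 against WT 8 alone and 0.35 without M337V 9. They summed to 3494 CPM in M337V 9 and 562 to 879 CPM in the other M337V libraries, beside 956 and 369 CPM in WT 8 and WT 10. The dorsal horn and motor neuron medians had the same sign against either WT library. So did other list medians, among them those of the erythroid, Schwann cell, meningeal fibroblast and cholesterol synthesis genes.

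**Figure D5:**
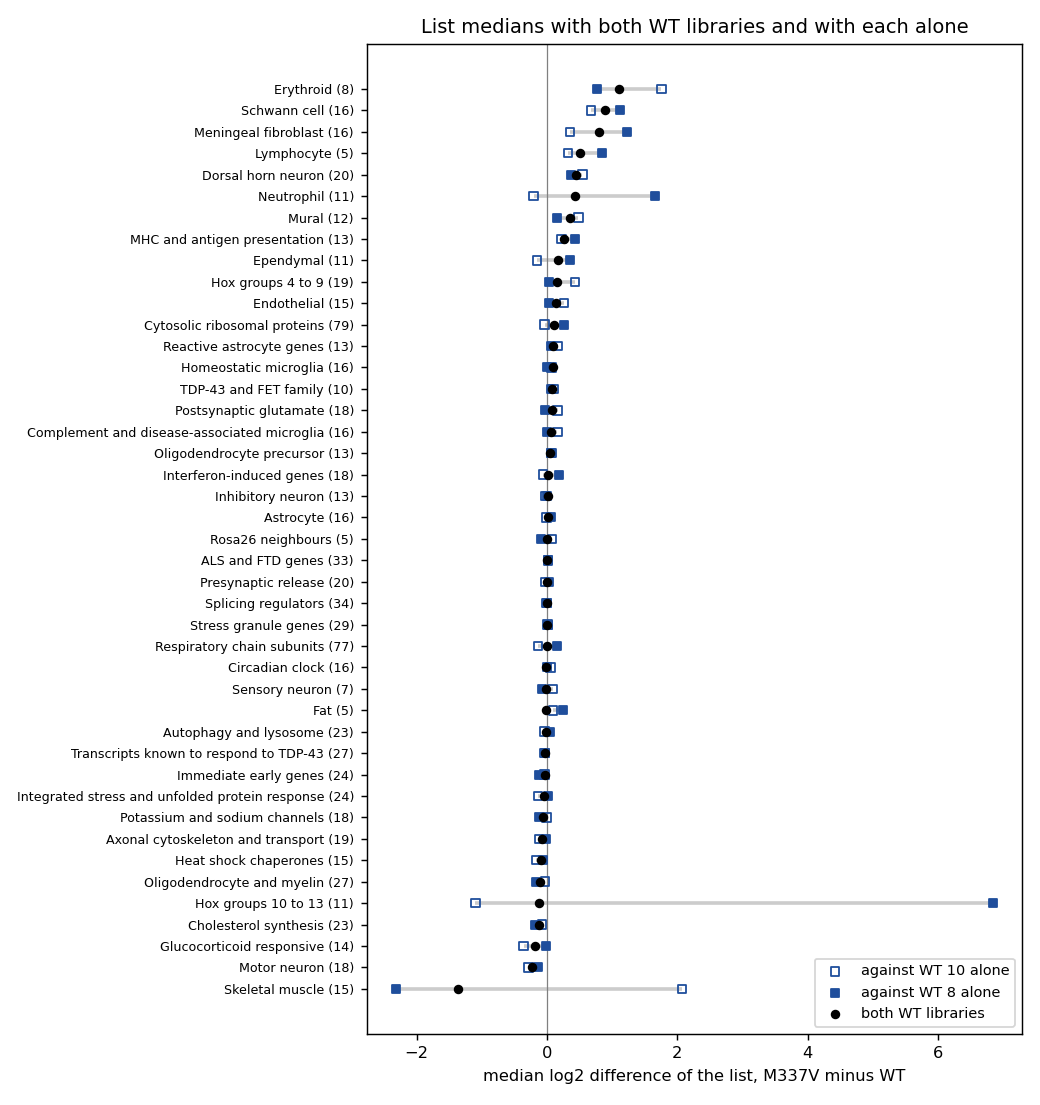
Median log2 difference, M337V minus WT, of each gene list with at least 5 tested genes (number in brackets); black points use both WT libraries, open squares WT 10 alone and filled squares WT 8 alone. Muscle and the Hox genes of groups 10 to 13 are among the lists that change sign between the WT libraries. The dorsal horn median, at 0.54 and 0.37, is among those that keep it.

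Leaving out single libraries brought single genes past the edgeR threshold. Without WT 8 they were 4833420G17Rik and the epidermal genes Krt2 and Dsg1a, which had 359 and 49 counts in WT 10. Without WT 10 they were 6 genes, of which Alb, Apob, Ahsg and Gc are liver genes with 45 to 699 counts in WT 8, Hoxc12 had 0 counts in WT 8 (which allows up to 3) and 32 to 60 in M337V, and Wdsub1 stood at 24.6 and 12.4 CPM in WT 8 and WT 10 and at 12.8 to 14.4 CPM in M337V. Without M337V 2 it was Gdpd3, a lysophospholipase D gene, at 0.767, 12.9, 1.15, 0.879 and 0.572 CPM in M337V and 7.90 and 10.1 CPM in WT. M337V 2 was at the level of WT and the other M337V libraries were far below it. With all libraries the log2 difference of Gdpd3 was -1.48 ± 0.89 (edgeR adjusted p = 0.797), and without M337V 2 it was -3.41 (adjusted p = 0.00627).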

How the data were processed

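PolyA RNA of lumbar spinal cord was sequenced as stranded TruSeq read pairs on a HiSeq instrument, per the labels' protocols. The authors deposited raw counts, a whole number for each gene in each library, with no scaling. The submitters' processing notes name STAR 2.4.2a and Salmon 0.8.2, featureCounts, Subread 1.4.6, Trimmomatic 0.32, FastQC 0.11.2, R 3.3.0 with DESeq2 1.14.1, and Picard 2.6.0. What each tool did, and to which build reads were aligned, the sources used here do not state. Of 22024 identifiers 21775 were named from a table by Ensembl identifier, and coordinates are those of a GENCODE annotation of GRCm38.

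Groups came from the genotype labels. Genes were filtered with filterByExpr (minimum count 10, minimum total 15), which kept 15191 genes holding 99.97% of counts, and were tested with edgeR 4.0.16 (R 4.3.3), TMM scaling and the non-robust quasi-likelihood test over all 10 libraries, at a Benjamini-Hochberg adjusted p below 0.05. Transgene levels were compared by exact permutation tests. Lists are described by counts and medians only. Intervals are at 95%, and the floor of 3 counts covers counting error only. In simulated counts for M337V against WT over 15191 genes the edgeR test recovered 66% of 100 genes changed by 1.5-fold and 81% of 100 changed by 2-fold, with 9 false calls among 156. Those counts were drawn with the trended spread for every gene and with no library that stood apart. These shares therefore do not give the power of the test in the data, where the WT libraries stood far apart.

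The members and lists were chosen with earlier results of these data known. Genes named were the transgene and its mouse counterpart, the 10 per direction with the smallest p, up to 10 per direction with the widest gap between groups without overlap (mean at least 5 CPM), and in each list described its first 4 members and the 4 with the smallest p. Other dorsal horn genes, those of the chromosome 13 region, the genes of other tissues, Gdpd3 and Wdsub1 were named after their values were seen. A few genes that this rule names are not reported here. Clone-style gene models appear only if among the largest or in that region.

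Alternatives were RLE size factors, no filter, a 1 CPM filter, the 7 transgenic libraries alone, DESeq2 1.42.0, limma 3.58.1 (voom with quality weights), robust dispersions, each library left out, M337V 1 to 3 or NTg 4 left out, covariates for posterior Hox or Schwann genes, and removal of GC and length trends (offsets from splines with 5 degrees of freedom). DESeq2 without WT 8 or WT 10 was added after the data were seen. No 2 libraries agreed within sampling noise (lowest chi-square per degree of freedom 4.87).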

Additional observations from a re-analysis of the deposited data

Results flagged for a closer look

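Among 98 sets of 5 M337V values 7 held a library far from the other 4 by Dixon's criterion (7.14%), where chance gives about 1 in 20. M337V 2 stood apart in Gdpd3 (12.9 CPM, median of the other 4 M337V libraries 0.823) and in Nnt (23.6 CPM, median 38.4). M337V 3 stood apart in Tac2 (16.5 CPM, median 30.1), Sst (48.1 CPM, median 59.4) and Chat (33 CPM, median 21.5), each median being that of the others. Zic4 was low in M337V 9 (5.46 CPM, median 7.02) and Clec14a high in M337V 7 (7.96 CPM, median 5.43). Outside the comparison, the library labelled NTg 4 held 118 CPM of human TARDBP, at the level of the transgenic libraries.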

How the results depend on the processing

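With 2 WT libraries no setting removes the dependence on which WT library is used. The count of genes called was 0 with limma-voom, and with edgeR it was 0 with RLE size factors, a 1 CPM filter, the 7 transgenic libraries alone, a Schwann covariate, GC and length trends removed, and without M337V 1 to 3. It was 1 with no filter, robust dispersions or a Hox 10 to 13 covariate (4833420G17Rik in each), and 2 with NTg 4 left out (Zic1 and Pcna-ps2). Leaving out 1 compared library gave 0 to 6. It was 1 without M337V 2 (Gdpd3) or M337V 3 (Tac2), 3 without WT 8 and 6 without WT 10. DESeq2 called 30, or 43 without WT 8 and 94 without WT 10. No paired analysis was possible because M337V and WT share no animal number.

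Of the 97 genes described, the following turned direction under a setting. Human TARDBP was -2.09 CPM (log2 -0.0240, DESeq2 -0.0284) without WT 10, and its log2 difference was -0.00341 with the Hox covariate and -1.38 with the Schwann covariate. Its edgeR standard error (1.07) includes the spread of NTg, where NTg 4 held 118 CPM. Over single libraries left out its difference ran from -2.09 to 11.05 CPM and from -0.0240 to 0.134 on the log2 scale. Mouse Tardbp was -9.17 CPM (log2 -0.0590) without M337V 1 to 3, and 1.33 to 14.3 CPM over single libraries left out. Over single libraries left out the log2 difference ran from -7.10 to 0.412 for Alb, from -0.0918 to 0.214 for Sod1 and from -0.869 to 0.125 for Wdsub1, each extreme without a WT library. DESeq2 without WT 8 gave 0.422 for Alb, -0.0967 for Sod1 and 0.1199 for Wdsub1. Sod1 was -0.0271 and Ndufs5 0.0451 without M337V 1 to 3. Beyond the library left out, the cause was not tested.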

Other observations

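Translation and energy genes moved with the WT library they were set against. Of 79 cytosolic ribosomal protein genes 76 had a log2 difference above 0, where 7627 of all 15191 genes did. At an unadjusted p below 0.05, 7 were higher and 1 lower in M337V (3.55% and 3.11% of all genes). The list median was 0.11, with -0.03 against WT 10 alone and 0.26 against WT 8 alone. Rpl34, of the large subunit, stood at 90.97, 90.7, 87.4, 78.6 and 66.5 CPM in M337V 1, 2, 3, 7 and 9 and at 55.1 and 67.5 CPM in WT 8 and WT 10 (log2 0.43 ± 0.12, edgeR adjusted p = 0.625). Of 77 respiratory chain subunits 0 had an unadjusted p below 0.05, and the median was 0.00, with -0.13 and 0.15. Stmn1, which loosens microtubules, stood at 155, 151, 142, 223 and 222 CPM in M337V and at 234 and 229.8 CPM in WT. The low values were those of M337V 1 to 3, and without these libraries its log2 difference of -0.38 ± 0.16 was -0.06.

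Ion channel, vessel and clock genes gave single members with a small p. Of 18 potassium and sodium channel genes 1 was higher and 3 lower in M337V at an unadjusted p below 0.05 (median -0.06, with -0.01 against WT 10 alone and -0.12 against WT 8 alone). Kcnj10, the potassium channel of astrocytes, stood at 1194, 1421, 1163, 1503 and 1265 CPM against 1539 and 1592 CPM in WT, without overlap (log2 -0.26 ± 0.09). Kcna2, a channel of the axon beside the node, differed by -0.26 ± 0.10, again without overlap, and by -0.14 against WT 10 alone. Of 20 presynaptic genes Sv2b, of synaptic vesicles, was the 1 lower (-0.27 ± 0.08, and -0.16 against WT 8 alone). Rgs5, a pericyte gene, stood at 154, 176, 176, 149.6 and 205 CPM against 144 and 128 CPM, without overlap (log2 0.34 ± 0.13). Bhlhe40, a repressor of the clock, stood at 69.3, 60.04, 69.3, 62.02 and 60.9 CPM against 52.2 and 54.2 CPM, one of 3 of 16 clock genes that were higher (0.27 ± 0.08). Sgk1, a kinase gene raised by glucocorticoids, stood at 39.2, 39.1, 61.8, 79.2 and 138 CPM in M337V and at 72.99 and 244 CPM in WT, where WT 10 was the highest of all 7 libraries (log2 -1.15 ± 0.50, -0.03 against WT 8 alone). edgeR adjusted p for these genes lay between 0.625 and 0.743.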
